A study of Mus musculus with 18 samples.

Results

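The genes examined here encode the subunits of the Mediator complex and of RNA polymerase II (Pol II), chosen by symbol. They were the 46 of 24485 listed genes named Med with a number, Polr2 with a letter from a to m, Cdk8, Cdk19 or Ccnc. Of these, 33 belonged to Mediator, with its kinase module included, and 13 to Pol II. The rule itself used no measured value, although earlier results of these data were known when it was set.

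Pol II makes all messenger RNAs, and its largest subunit, Polr2a, carries the repeated tail whose phosphorylation marks the steps of transcription. Mediator is the large assembly that joins enhancer-bound activators to Pol II at the promoter, and its head, middle and tail surround the scaffold subunit Med14. A separable kinase module, made of Cdk8 or Cdk19 with cyclin C, Med12 or Med12l and Med13 or Med13l, binds the core reversibly and regulates its contact with Pol II.

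The RNA-seq data came from bone marrow-derived macrophages (BMDMs), with 18 libraries from 3 Il10-/- mice on the C57BL/6J background, which were 12-week-old males by the study's methods. Every group, controls included, lacked a functional gene for the anti-inflammatory cytokine IL-10, and no wild-type library was analysed here. Cells grown in medium conditioned by L929 fibroblasts received (+)-JQ1 at 500 nM, IL-10 at 10 ng/mL or neither for 12 hours, and LPS at 50 ng/mL or buffer was then present for another 4 hours, with 3 libraries in each of the 6 groups. (+)-JQ1, named JQ1 below, is a small molecule that displaces BET proteins from acetylated histones, and LPS is the bacterial lipopolysaccharide that activates macrophages through Toll-like receptor signalling. The labels call the cells without JQ1 or IL-10 untreated, whereas the study's methods give cells a vehicle before LPS and list untreated cells as a further control. An effect of the vehicle thus cannot be told apart in the comparisons with unstimulated cells. The groups are called unstimulated, JQ1, IL-10, LPS, LPS + JQ1 and LPS + IL-10. The comparisons ask how LPS, BET inhibition and IL-10 changed the RNA of the machinery through which the response is transcribed.

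Library totals ran from 6781952 expected counts, in unstimulated replicate 2, to 28289498, in replicate 1 of the IL-10 group. All 8 macrophage markers reached 1 TPM and summed to 14317 to 29066 TPM per library, with the lowest sums in LPS libraries and the highest in JQ1 libraries. The 5 T cell markers summed to 2.16 to 8.88 TPM, nearly all of it from Cd4 and Lck. The 5 neutrophil markers summed to 6.76 to 74.0 TPM, nearly all of it from S100a8 and S100a9, while Ly6g was at 0 in all libraries. Both of these sums were lower with JQ1 than in unstimulated cells, at 3.12 to 3.92 against 6.95 to 7.97 TPM and at 6.76 to 13.4 against 21.1 to 74.0 TPM. They were also lower with LPS + JQ1 than with LPS, at 2.16 to 2.84 against 6.81 to 8.30 TPM and at 10.7 to 23.9 against 32.4 to 45.9 TPM. The B cell marker sums were lower too, at 0.20 to 0.50 against 2.34 to 5.34 TPM and at 0.10 to 0.68 against 0.89 to 1.53 TPM. The fibroblast marker sums overlapped in both comparisons. Dendritic cell marker sums overlapped with JQ1 alone but were lower with LPS + JQ1 than with LPS, at 1.12 to 1.41 against 2.08 to 2.82 TPM. Mast cell marker sums were higher with JQ1 alone than in unstimulated cells, at 0.17 to 0.27 against 0 to 0.09 TPM, and overlapped during LPS. The ribosomal RNA precursor Rn45s took 9.13% to 11.0% of counts in unstimulated libraries, 10.9% to 12.5% with JQ1, 5.54% to 7.07% with LPS and 7.11% to 7.92% with LPS + JQ1, so it moved with LPS and, during LPS, with JQ1. The part of these markers and of Rn45s in the results below was not tested. Replicate 3 of the LPS group and of the LPS + IL-10 group stood apart from the other libraries of their groups, with a chi-square per degree of freedom of 26.1 to 30.5 against 4.14 to 11.2 in all other replicate pairs. Reads of the Il10 locus were found in all libraries, at 27.1 to 177 normalised counts, and whether the deleted part is among them was not tested. In these bulk samples fewer cells and less RNA per cell cannot be told apart. Changes below are log2 fold changes from DESeq2 with their standard errors, and a gene was called when its Benjamini-Hochberg adjusted p was under 0.05. Normalised counts were divided by median-of-ratios size factors and serve to compare groups, and TPM, which is scaled for length, serves to compare genes.

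The scaling between libraries mattered most for LPS. The median change of all tested genes after LPS was -0.07 by the median-of-ratios factors used here, -0.15 by TMM, -1.02 by the total count and -0.69 on the TPM scale. Beside these values the median over the members was 0.28, 0.20, -0.65 and -0.46, so members lay above the median gene by 0.35, 0.36, 0.37 and 0.23. Genes are therefore grouped below by whether their call was the same under all 4 scalings.

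Of the 46 members, 45 had a mean of at least 10 normalised counts, and 44 had a mean of at least 5 TPM over the 18 libraries. The exceptions by TPM were Med18, at 4.47, and Med12l, at 0.0772. In unstimulated cells the most abundant member was Polr2j, a core assembly subunit, at 104 ± 8.28 TPM (SD, n = 3). In LPS-treated cells the order changed, and Polr2g, a subunit of the stalk of Pol II, ranked 1st at 104 ± 2.28 TPM after ranking 9th in unstimulated cells. Polr2a ranked 5th in unstimulated cells, 1st with JQ1, 15th with LPS and 2nd with LPS + JQ1. Med13l moved from 17th in unstimulated cells to 3rd with LPS.

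Summed over its 13 members, the Pol II set had 619 ± 22.7 TPM in unstimulated cells and 685 ± 32.3 TPM with JQ1. The sum was 406 ± 26.0 TPM with LPS, 629 ± 28.4 TPM with LPS + JQ1 and 407 ± 19.3 TPM with LPS + IL-10. The LPS libraries, at 380 to 432 TPM, did not overlap the LPS + JQ1 libraries, at 598 to 654 TPM. The 33 Mediator genes summed to 635 ± 11.1 TPM in unstimulated cells, 611 ± 54.5 TPM with LPS and 626 ± 28.6 TPM with LPS + JQ1, and these ranges overlapped. With JQ1 alone they summed to 570 ± 20.2 TPM, and these libraries, at 547 to 583 TPM, lay below the unstimulated ones, at 622 to 642 TPM. On the TPM scale the median change of all tested genes was -0.69 with LPS, -0.16 with JQ1 alone and 0.17 with JQ1 during LPS. The sums carry this shift, so no change particular to either complex is read from them. The pattern of called changes over the whole set is shown by comparison in the heat map.

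**Figure D1:**
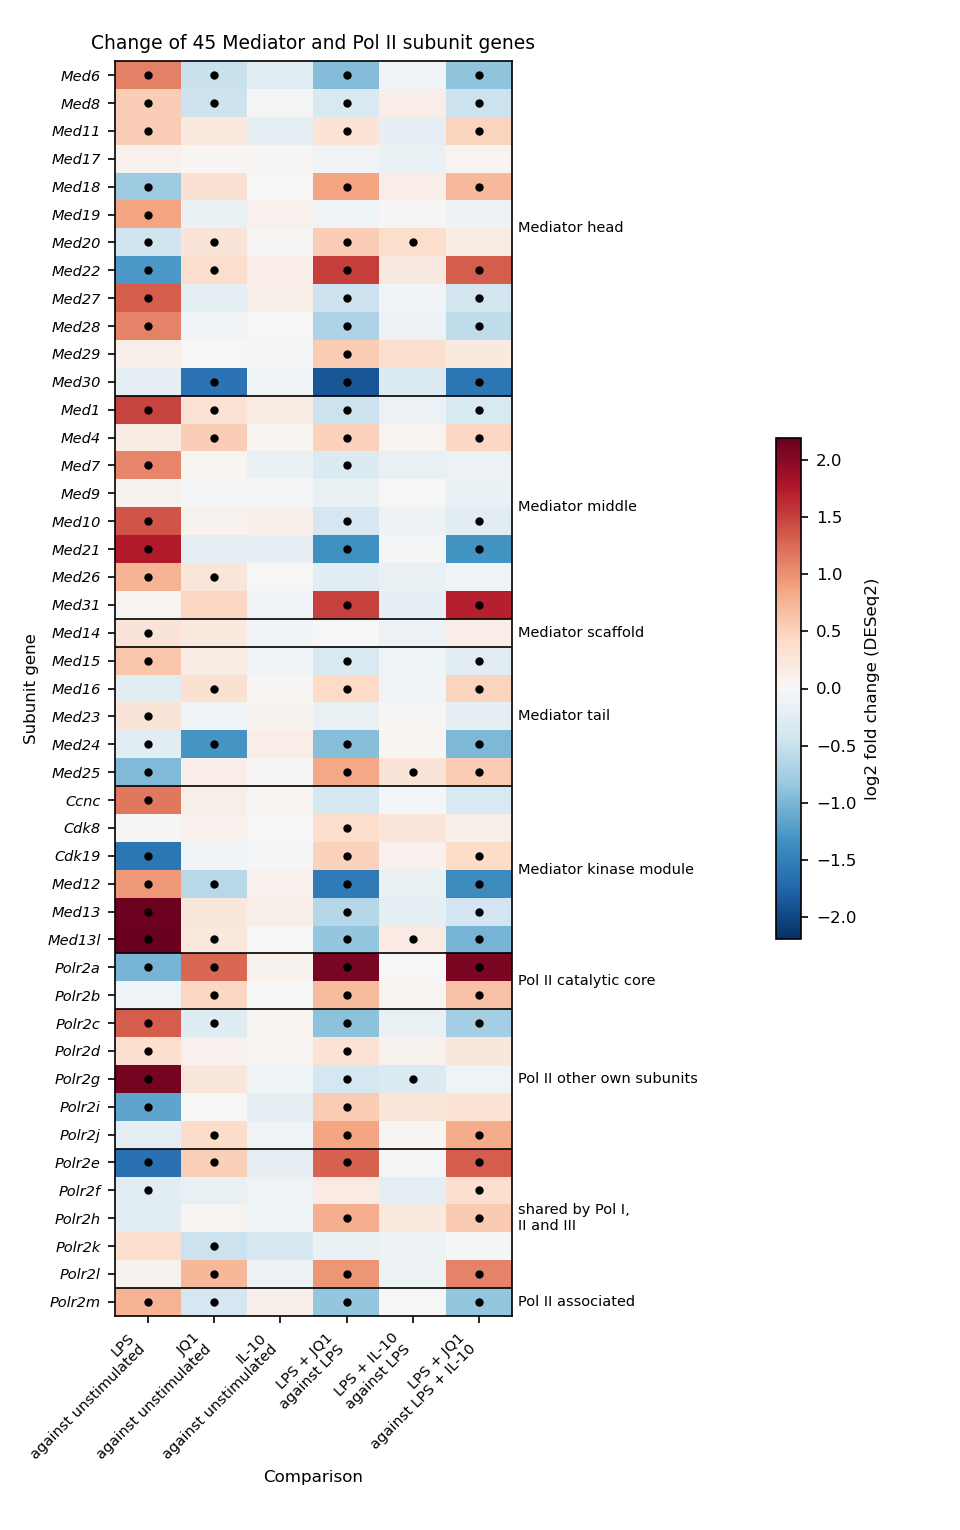
Heat map of the log2 fold change (colour) of 45 members (rows, grouped by their place in the complex) in 6 comparisons (columns), with a black point where the adjusted p was under 0.05. Med12l, at 0 to 0.26 TPM, is left out. The columns for IL-10 are pale, at 0 and 4 called members, and Polr2a is blue with LPS at -1.03 and red with JQ1 at 1.26 without and 2.09 with LPS.

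The promoter windows of 3 members are shown because the results turn on them: Polr2a had the largest rise with JQ1, with and without LPS, and the paralogs Med13 and Med13l rose together with LPS. Each is the 250 bases before the RefSeq start on build GRCm38.p6, 5′ to 3′ on the strand of the gene. Capitals mark TATAAA and the GC box GGGCGG, searched on both strands with overlaps counted.
Polr2a: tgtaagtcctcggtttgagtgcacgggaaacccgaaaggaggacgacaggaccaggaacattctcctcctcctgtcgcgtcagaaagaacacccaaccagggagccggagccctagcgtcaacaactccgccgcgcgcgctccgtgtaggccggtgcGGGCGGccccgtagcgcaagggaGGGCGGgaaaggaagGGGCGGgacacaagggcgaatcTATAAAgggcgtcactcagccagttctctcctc
Med13: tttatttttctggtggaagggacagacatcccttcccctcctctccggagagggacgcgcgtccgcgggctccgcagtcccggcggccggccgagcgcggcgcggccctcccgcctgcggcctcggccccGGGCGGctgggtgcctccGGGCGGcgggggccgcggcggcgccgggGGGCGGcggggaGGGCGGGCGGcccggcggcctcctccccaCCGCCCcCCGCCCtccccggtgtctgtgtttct
Med13l: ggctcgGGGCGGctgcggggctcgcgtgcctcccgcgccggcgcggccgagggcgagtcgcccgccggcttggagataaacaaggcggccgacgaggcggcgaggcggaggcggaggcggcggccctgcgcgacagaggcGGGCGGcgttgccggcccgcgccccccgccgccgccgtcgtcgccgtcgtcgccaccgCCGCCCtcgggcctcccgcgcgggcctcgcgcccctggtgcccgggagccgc
The Polr2a window (chromosome 11, 69758634 to 69758883, minus strand) held 1 TATAAA and 3 GGGCGG. The window of Med13 (chromosome 11, 86357597 to 86357846, minus strand) held 7 GGGCGG, and that of Med13l (chromosome 5, 118560469 to 118560718, plus strand) held 3, with a GC content of 80.0% and 84.0% against a median of 52.4% over all 32851 windows. Windows were found for 38 of the 46 members, some with more than 1, giving 44 windows. GGGCGG was in 65.9% of these and in 32.7% of all windows, CCGGAAG in 18.2% and 6.91%, the binding motif of NRF1 in 15.9% and 3.74%, CCAAT in 36.4% and 33.8%, TATAAA in 11.4% and 12.4%, and TGANTCA in 4.55% and 6.75%. The windows of the members had a median GC content of 56.8%, beside 52.4% over all windows, and the motif shares were not corrected for it. A match describes the letters of a window and is not a site of binding.

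With LPS, genes of both complexes were called in each direction, at 75.8% of the Mediator and 61.5% of the Pol II genes. In the LPS group 23 members were higher and 10 lower than in unstimulated cells, against 32.3% of 14649 tested genes called higher and 33.7% called lower (66.0% in either direction, beside 71.7% of the members). Without the third LPS and LPS + IL-10 libraries the counts were 20 and 8. With total-count scaling the split was 9 higher and 30 lower, and on the TPM scale 10 higher and 29 lower. Med1, Med10, Med13, Med13l, Med21, Med27, Polr2c and Polr2g were higher under all 4 scalings. Cdk19, Med18, Med20, Med22, Med24, Med25, Polr2a, Polr2e, Polr2f and Polr2i were lower under all 4, and Med8, Med11, Med14, Med15, Med23, Polr2d and Polr2m were called in opposite directions under different scalings. By place in the complex, with median-of-ratios factors, 5 of 8 middle subunits were called higher and 0 lower, and 5 of 7 kinase module genes higher and 1 lower. Of the head subunits 6 of 12 were higher and 3 lower, with 2 of 5 tail subunits and 4 of 13 Pol II genes each way. Under all 4 scalings only Med1, Med10 and Med21 of the middle were higher, and in the kinase module only Med13 and Med13l, with Cdk19 lower. Leaving out replicate 2 lowered the number of members called lower from 10 to 6.

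Polr2a (mm9 chromosome 11, 69547499 to 69572139, minus strand) had 3391, 3579 and 3412 normalised counts in unstimulated cells and 1743, 1707 and 1645 with LPS. All LPS libraries lay below all unstimulated ones, and the change was -1.03 ± 0.06 (SE, adjusted p = 3.7e-59). Polr2b (chromosome 5, 77739172 to 77778349, plus strand), which forms the catalytic cleft together with Polr2a, had 609, 616 and 642 normalised counts in unstimulated cells and 553, 572 and 619 with LPS, and its change of -0.10 ± 0.09 was not called, although total-count scaling gave -1.03. Igfbp7, on the other strand, shares 85 exon bases with Polr2b. The ratio of Polr2a to Polr2b TPM, which does not depend on the scaling between libraries and was chosen after the values were seen, was 3.08 ± 0.138 in unstimulated cells and 1.62 ± 0.138 with LPS.

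The stalk subunit Polr2g (chromosome 19, 8867619 to 8873047, minus strand) had 211, 176 and 219 normalised counts in unstimulated cells and 911, 919 and 823 with LPS. It rose by 2.10 ± 0.11 (adjusted p = 6.9e-84), and by 1.17 under the total-count scaling. Its partner in the stalk, Polr2d (chromosome 18, 31948813 to 31956296, plus strand), changed by only 0.37 ± 0.15, and was called lower under another scaling. Polr2e (chromosome 10, 79498694 to 79502540, minus strand), a subunit shared with RNA polymerases I and III, went the other way, from 537, 521 and 531 normalised counts to 185, 160 and 165, a change of -1.65 ± 0.10 (adjusted p = 1.8e-59). The Polr2g to Polr2e ratio of TPM, also picked after its values were known, was 0.460 ± 0.0471 in unstimulated cells and 6.29 ± 0.530 with LPS, 13.7-fold higher on the mean of logs. Of the other shared subunits, Polr2f had -0.25 ± 0.11 and was called lower, and Polr2h, Polr2k and Polr2l were not called at -0.23, 0.37 and 0.08.

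Polr2c (chromosome 8, 97381350 to 97397435, plus strand), whose protein pairs with that of Polr2j to start assembly of the enzyme, rose from 251, 286 and 249 to 635, 670 and 653 normalised counts, by 1.33 ± 0.10 (adjusted p = 3.7e-38). It shares 726 exon bases with Dok4 on the other strand, a gene with a mean of 99.4 expected counts, and its counts were not whole in 17 of 18 libraries. Polr2i, a subunit with a role in transcript fidelity, fell by 1.16 on the log2 scale (SE 0.21), and 325 of its exon bases are shared with Tbcb on the other strand. Polr2m, which encodes a protein bound to part of the Pol II pool, was at 0.76 ± 0.07 but called lower with another scaling.

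**Figure D2:**
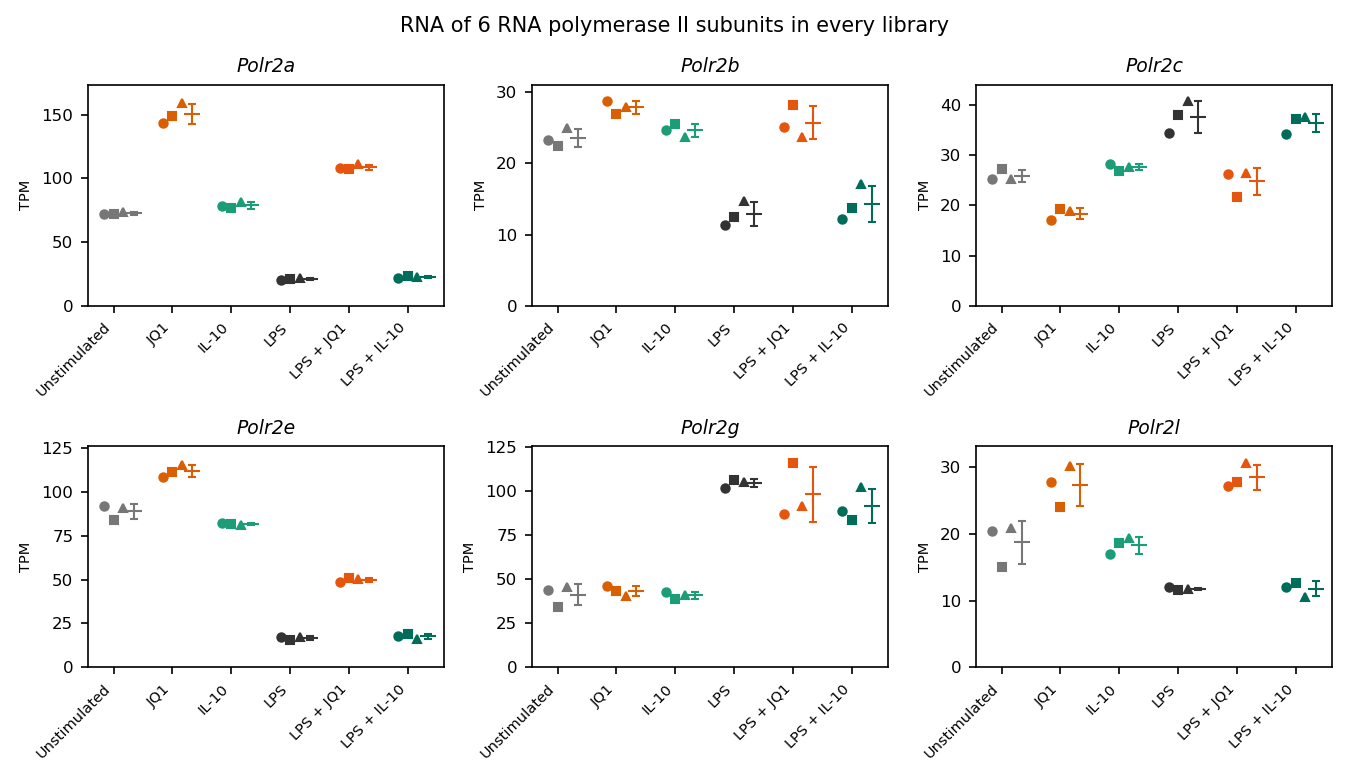
TPM (vertical axis, from 0) of 6 Pol II subunit genes in each of the 3 libraries of the 6 groups (circle, square and triangle for replicates 1, 2 and 3), with the mean and SD beside them. Polr2a and Polr2e are low in the LPS and LPS + IL-10 groups and Polr2g is high there, with Polr2a at 19.9 to 21.8 TPM in LPS libraries and 108 to 111 TPM in LPS + JQ1 libraries.

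In the kinase module, the paralogs Med13 and Med13l, which tie the module to the Mediator core, both rose with LPS. Med13 (chromosome 11, 86080535 to 86171104, minus strand) had 1282, 1111 and 1182 normalised counts in unstimulated cells and 4973, 4512 and 6429 with LPS, a change of 2.15 ± 0.15 (adjusted p = 3.8e-43). Med13l (chromosome 5, 119010728 to 119215444, plus strand) had 1748, 1679 and 1597 normalised counts in unstimulated cells and 7730, 7752 and 7157 with LPS, a change of 2.17 ± 0.05. The groups did not overlap for either gene, and with total-count scaling the changes were 1.23 and 1.24. Their TPM ratio was 0.559 ± 0.0340 in unstimulated cells and 0.556 ± 0.132 with LPS. The difference of -0.03 on the log2 scale had p = 0.90 in an exact two-sided permutation test. With 3 against 3 libraries this p cannot go below 0.10, and the test cannot show that the ratios are equal. The LPS libraries had 0.505, 0.457 and 0.705, the last in replicate 3, against 0.520 to 0.581 in unstimulated cells. Without replicate 3 of both groups the difference was -0.19. Med13 counts were not whole in any library, so some of its reads were divided among genes.

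The kinases went different ways. Cdk19 (chromosome 10, 40069114 to 40203624, plus strand) fell from 790, 874 and 982 normalised counts to 269, 267 and 345 with LPS, by 1.59 on the log2 scale (SE 0.11, adjusted p = 2.8e-43). Cdk8 (chromosome 5, 147042806 to 147114450, plus strand) had 136, 186 and 154 normalised counts without and 153, 146 and 182 with LPS, a change of 0.03 that was not called, whereas total-count scaling called it lower at -0.89. Within libraries the Cdk8 to Cdk19 ratio of TPM was 0.403, 0.497 and 0.367 in unstimulated cells and 1.33, 1.27 and 1.23 with LPS. The ratio was thus 3.05-fold higher with LPS on the mean of logs, without overlap, at the smallest p that the exact permutation test allows (p = 0.10, 0.50 adjusted over the 10 tests of this ratio and of Med13 to Med13l).

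Ccnc, which encodes cyclin C, changed by 1.17 ± 0.22 and Med12, which activates the kinase, by 0.96 ± 0.07 with median-of-ratios factors, and by 0.24 and 0.03 with total-count scaling, so their rise rests on the scaling. In Ccnc the third LPS library, at 350 normalised counts, lay above the others, at 233 and 226. Med12l had 1, 2 and 7 expected counts in unstimulated libraries and 16, 13 and 23 with LPS. Summed counts gave a ratio of 7.06 between LPS and unstimulated cells, with an exact 95% interval of 3.55 to 15.6 that covers counting error only.

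**Figure D3:**
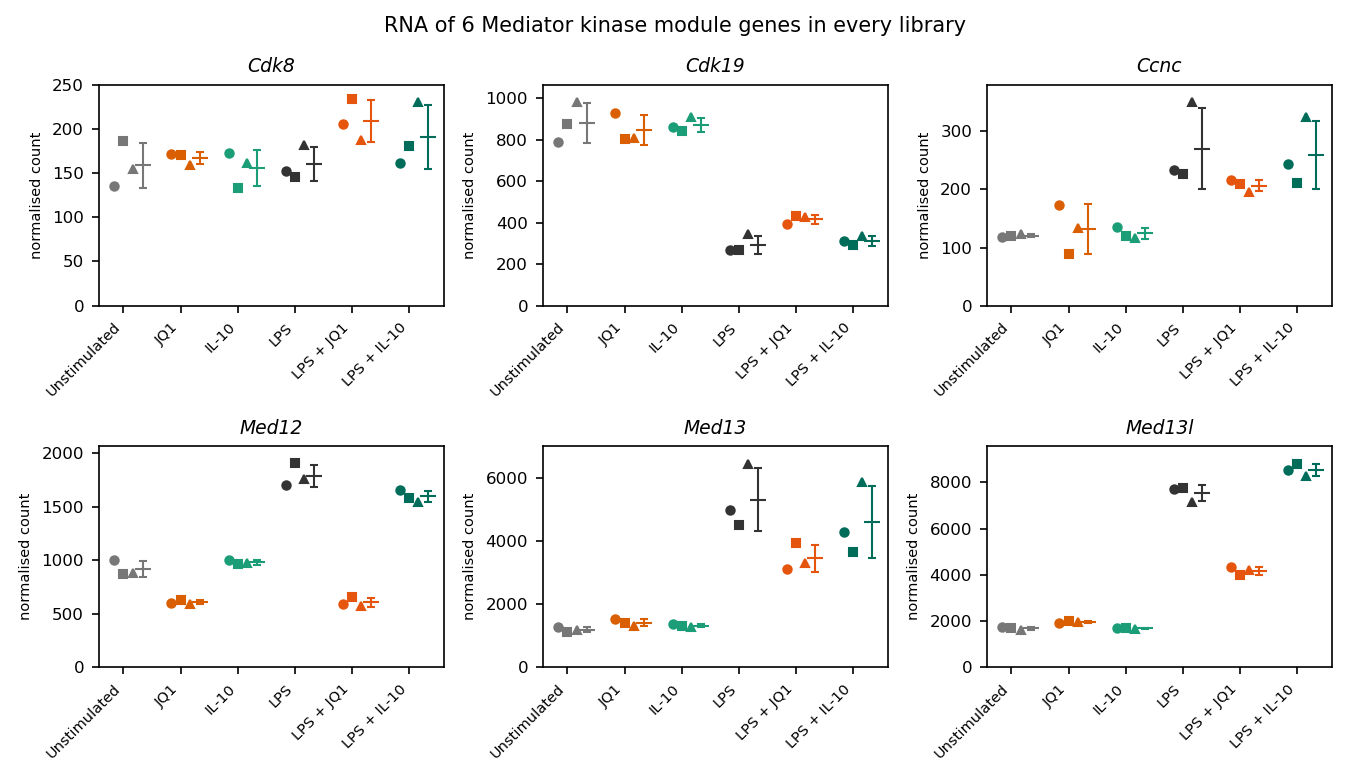
Normalised counts (vertical axis, from 0) of 6 kinase module genes in each of the 3 libraries of the 6 groups (circle, square and triangle for replicates 1, 2 and 3), with mean and SD beside them. Med13 and Med13l are higher in all libraries with LPS than in any without it, Cdk19 is lower in all with LPS than in any without it, and Med12 is lowest in both groups given JQ1, at 575 to 658 counts.

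Among core Mediator subunits, Med21 of the middle (chromosome 6, 146591069 to 146599124, plus strand) rose from 67.1, 67.7 and 67.7 to 181, 212 and 281 normalised counts, by 1.74 ± 0.24 (adjusted p = 1.6e-12). It overlaps Tm7sf3 by 25 and Gm6654 by 412 exon bases on the opposite strand. Med1 (chromosome 11, 98013468 to 98054607, minus strand), the subunit that binds nuclear receptors, rose from 1099, 1077 and 1005 to 2979, 2808 and 3163 normalised counts, by 1.49 ± 0.06 (adjusted p = 2.1e-116). The scaffold gene Med14 changed by 0.28 ± 0.12, in 2 of 3 same-numbered pairs, was called lower with other scalings, and was not called without the third LPS and LPS + IL-10 libraries, at 0.13. Med22 of the head (chromosome 2, 26760782 to 26766197, minus strand) fell from 515, 480 and 481 to 228, 193 and 196 normalised counts, by 1.27 on the log2 scale (SE 0.10, adjusted p = 8.1e-33). Med25, a tail subunit that binds activators, fell by 0.98 (SE 0.10), while Med16, Med17 and Med9 were not called at -0.25, 0.09 and 0.08.

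JQ1 given without LPS raised Polr2a, which encodes the catalytic subunit. Of the 33 Mediator genes, 7 were called higher and 5 lower, and this share of 36.4% lay below that of all tested genes. Of 13688 tested genes, 21.9% were called higher and 23.7% lower, or 45.7% in all. Of the members, 12 were higher and 8 lower than in unstimulated cells, or 43.5%. On the TPM scale the split was 4 higher and 12 lower, and with total-count scaling 6 and 12. Med4, Polr2a, Polr2e and Polr2l were higher under all 4 scalings, and Med6, Med8, Med12, Med24, Med30, Polr2c, Polr2k and Polr2m were lower under all 4. Members called higher numbered 7 without replicate 1 and 7 without replicate 3, and those called lower 5 without replicate 1 and 5 without replicate 2.

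Polr2a had 7795, 8543 and 8535 normalised counts with JQ1, all above the 3391 to 3579 of unstimulated cells, and rose by 1.26 ± 0.06 (adjusted p = 3.8e-98), or 1.04 to 1.26 over the scalings. Polr2b had 863, 856 and 830 normalised counts and a change of 0.45 ± 0.09, which was the smaller of the pair: the Polr2a to Polr2b ratio of TPM was 5.40 ± 0.368 with JQ1 against 3.08 ± 0.138 without. Polr2l (chromosome 7, 148657759 to 148661031, minus strand), another shared subunit, rose from 217, 169 and 220 to 339, 310 and 369 normalised counts, by 0.72 ± 0.13. Med4 of the middle module rose by 0.54 ± 0.12, from 122, 156 and 160 to 215, 196 and 219 normalised counts.

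The falls with JQ1 were concentrated in no single module. Med30 of the head (chromosome 15, 52544000 to 52561986, plus strand) had 100.3, 112 and 117 normalised counts in unstimulated cells and 30.3, 31.5 and 44.9 with JQ1, a change of -1.62 ± 0.23 (adjusted p = 8.4e-12). Med24 of the tail (chromosome 11, 98565905 to 98590749, minus strand) went from 382, 364 and 336 to 132, 165 and 145 normalised counts, a change of -1.29 ± 0.11 (adjusted p = 3.0e-29), and its annotated exons contain 81 bases of the small nucleolar RNA SNORD124. Med12 (X chromosome, 98469369 to 98492804, plus strand) went from 1004, 874 and 882 to 604, 629 and 593 normalised counts, a change of -0.60 ± 0.08 (adjusted p = 5.6e-14). For these 3 genes no JQ1 library reached the lowest unstimulated one. Cdk8, Cdk19, Ccnc, Med13 and Med14 were not called, with changes of 0.10, -0.06, 0.14, 0.24 and 0.22.

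With LPS present, more members differed between cells with and without JQ1. In LPS + JQ1 cells 19 members were higher and 18 lower than in LPS cells, against 24.4% and 32.9% of 14328 tested genes (57.3% in either direction). The 19 higher members were higher under all 4 scalings. Only 9 of the 18 lower ones, Med6, Med12, Med13l, Med21, Med24, Med28, Med30, Polr2c and Polr2m, were lower under all 4, and the split was 23 higher and 10 lower with total-count scaling and 22 and 9 on the TPM scale. Of the Pol II genes 8 were higher and 3 lower, and of the kinase module 2 were higher and 4 lower. The median over the Pol II genes was 0.57, and the medians of the log2 ratios between same-numbered libraries were lower, at 0.46, 0.44 and 0.49. Over the Mediator genes the median was -0.23, with -0.14, -0.20 and -0.21 between same-numbered libraries, beside -0.11 for all tested genes. Without the third LPS and LPS + IL-10 libraries 17 members were higher and 18 lower, and without replicate 3 of all groups 13 and 16.

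Polr2a had 7488, 6816 and 7332 normalised counts with LPS + JQ1 and 1743, 1707 and 1645 with LPS, a change of 2.09 ± 0.06 (adjusted p = 3.5e-246). Its TPM of 108, 108 and 111 lay above both the LPS range of 19.9 to 21.8 and the unstimulated range of 71.8 to 73.5. Polr2e rose by 1.30 ± 0.10 to 421, 408 and 420 normalised counts, Polr2l by 0.97 ± 0.13 to 424, 399 and 462, and Polr2j by 0.86 ± 0.11 to 463, 475 and 474. The exon bases that Polr2j shares with Lrwd1 on the other strand numbered 176. Polr2b, at 962, 992 and 869 normalised counts, rose by 0.70 ± 0.09. Polr2c fell by 0.90 (SE 0.10) to 385, 292 and 373 normalised counts, and Polr2g had a change of -0.39 ± 0.10, which was not called with total-count scaling or TPM. The Polr2g to Polr2e ratio of TPM was 1.95 ± 0.267 with LPS + JQ1 against 6.29 ± 0.530 with LPS.

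Among Mediator subunits, Med12 had 588, 658 and 575 normalised counts with LPS + JQ1 and 1708, 1908 and 1761 with LPS, a change of -1.56 ± 0.08 (adjusted p = 4.0e-91). The LPS + JQ1 values of Med12 overlapped the 593 to 629 of cells given JQ1 alone. Med13l had 4324, 3999 and 4190 against 7730, 7752 and 7157 normalised counts, a change of -0.86 ± 0.05. Med13 had 3103, 3932 and 3306 against 4973, 4512 and 6429, a change of -0.62 ± 0.15, which was not called under every scaling. Med21 fell by 1.35 (SE 0.24) to 88.3, 97.9 and 77.6 normalised counts, Med30 by 1.88 (SE 0.26) to 25.4, 32.6 and 18.5, and Med6, an essential head subunit, by 0.96 (SE 0.15) to 97.2, 113 and 110. In normalised counts none of these LPS + JQ1 libraries overlapped the LPS group, and in TPM only those of Med13 did.

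Rises in Mediator were seen at Med22, which went from 228, 193 and 196 to 553, 578 and 644 normalised counts with LPS + JQ1, by 1.53 ± 0.10 (adjusted p = 5.6e-47). Med31, a small middle subunit, went from 25.4, 30.0 and 54.0 to 99.4, 114 and 97.2 normalised counts, by 1.50 ± 0.26 (adjusted p = 2.0e-08). Med18 and Med20, which form a pair in the head, rose by 0.87 ± 0.23 and 0.54 ± 0.13, and Med25 rose by 0.85 ± 0.10. Both kinase genes were called higher, Cdk19 by 0.51 ± 0.12 and Cdk8 by 0.39 ± 0.16, and their ratio, at 1.17 ± 0.130, overlapped that of the LPS libraries, at 1.28 ± 0.0472 (exact permutation p = 0.20). Med12l had 2, 0 and 1 expected counts with LPS + JQ1, so the ratio of LPS to LPS + JQ1 from summed counts was 18.6, with an exact 95% counting interval of 6.01 to 93.0.

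The JQ1 effect without LPS and that with LPS share no libraries and can be set side by side. Of the 20 members called with JQ1 alone, 16 (80.0%) were called in the same direction during LPS, which is 43.2% of the 37 called there. Over all tested genes 45.7% were called with JQ1 alone and 57.3% during LPS. The share of all genes called alike in both was not counted, so whether the overlap is particular to the members was not tested. Med4, Med16, Med20, Med22, Polr2a, Polr2b, Polr2e, Polr2j and Polr2l were higher in both, and Med6, Med8, Med12, Med24, Med30, Polr2c and Polr2m were lower in both. Med1 and Med13l were called higher with JQ1 alone, at 0.32 and 0.23, and lower during LPS, at -0.47 and -0.86. Neither rise with JQ1 alone was called under all 4 scalings, nor was the fall of Med1 during LPS. Of the members higher in both, Med4, Polr2a, Polr2e and Polr2l were so under all 4 scalings. Of those lower in both, all but Med8 were. Across the 45 members other than Med12l, Pearson's r between both effects was 0.753, and it was 0.572 across all 11390 genes with a mean of at least 10 normalised counts. Both are descriptions over genes, which are not independent replicates, and cultures of the same mice stand behind both axes.

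**Figure D4:**
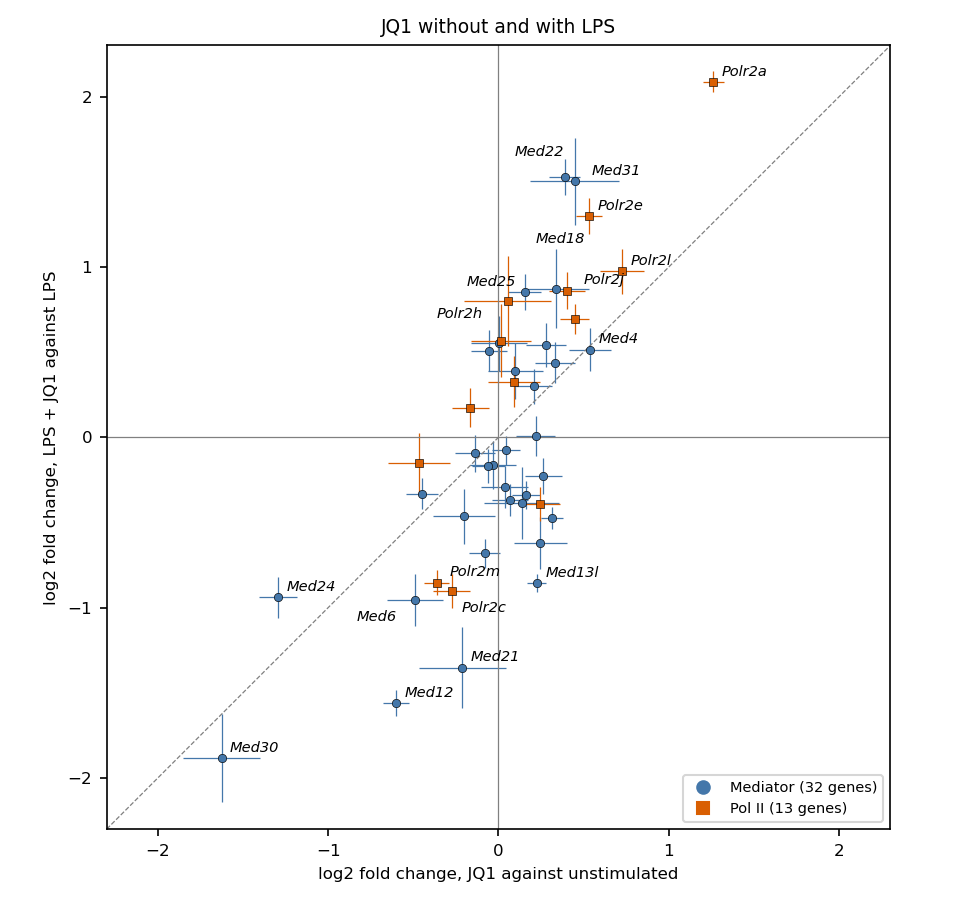
Log2 fold change of 45 members with JQ1 in cells without LPS (horizontal axis) and with LPS (vertical axis), with bars for the standard error, circles for Mediator and squares for Pol II. The dashed line marks equal effects. Polr2a lies above it at 1.26 and 2.09, Med30 near it at -1.62 and -1.88, and Med13l on opposite sides of 0 at 0.23 and -0.86. The rise of Med13l without LPS was not called under every scaling.

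The interaction tests whether the effect of JQ1 differed with LPS present. It was called for 8 members in the higher direction and 13 in the lower, against 17.7% and 23.8% of 12729 tested genes (41.5% in either direction). Cdk19, Med22, Med25, Med29, Med31, Polr2a, Polr2e and Polr2j were higher under all 4 scalings, and Med12 and Med13l were lower under all 4, while the split was 26 and 4 with total-count scaling. For Polr2a the interaction was 0.82 ± 0.09 (adjusted p = 2.5e-20), for Med22 1.14 ± 0.14 (adjusted p = 2.0e-15) and for Med13l -1.08 ± 0.08 (adjusted p = 1.2e-44). Without replicate 2 the number in the higher direction was 4, and without replicate 1 it was 5.

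IL-10 without LPS left no member called. In IL-10 cells 0 of the 46 members were called in either direction by DESeq2 or by edgeR, with 3 at an unadjusted p under 0.05 in DESeq2, where 2.81% of 12729 tested genes were called (1.80% higher, 1.01% lower). Polr2a had 3593, 3658 and 3638 normalised counts, Med13l 1716, 1678 and 1667, and Med12 1007, 964 and 976, and the latter pair overlapped the unstimulated libraries while Polr2a lay just above them. The 95% interval of the Polr2a change was -0.05 to 0.19 around 0.07, and that of Med13l was -0.10 to 0.12.

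With LPS present, 3 members were called higher and 1 lower in LPS + IL-10 cells than in LPS cells, among 45 with an adjusted p, against 8.38% and 8.81% of 11450 tested genes (17.2% in all). Med20 had 177, 214 and 197 normalised counts against 141, 149 and 161 with LPS, a change of 0.38 ± 0.13 (adjusted p = 0.031). Med25 changed by 0.29 ± 0.11 (adjusted p = 0.046) and Med13l by 0.17 ± 0.05 (adjusted p = 0.0046), and Polr2g by -0.30 ± 0.10 (adjusted p = 0.018), the last not under every scaling. These calls depended on the samples used: 0 members were called higher or lower with the fit of these groups alone, without replicate 1 or without replicate 2, and 1 higher and 0 lower without replicate 3. Without the third LPS and LPS + IL-10 libraries alone 2 were higher and 1 lower, and Med20 was not called, at 0.43. The exons of Med20 share 5580 bases with Usp49 on the same strand. The expected counts of Med20 were whole in every library, so no division of its reads was seen. Polr2a had 1807, 1756 and 1577 normalised counts with LPS + IL-10, which overlapped the LPS group, and the 95% interval of its change was -0.12 to 0.14. The interaction of IL-10 with LPS was called for Med1 alone, at -0.29 ± 0.09, where 4.00% of 10810 tested genes were called higher and 3.44% lower, or 7.44% in all, and it was called for 0 members by edgeR and when replicate 1, 2 or 3 was left out of all groups, or replicate 3 of the LPS and LPS + IL-10 groups alone.

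LPS cells given JQ1 and those given IL-10 were also compared directly, and 15 members were higher and 16 lower in LPS + JQ1, against 23.8% and 31.6% of 14328 tested genes (55.3% in either direction). The split was 22 and 10 with total-count scaling and 21 and 10 on the TPM scale. Polr2a differed by 2.08 ± 0.06 (adjusted p = 9.5e-244), Med31 by 1.71 ± 0.26 and Med22 by 1.34 ± 0.10. Med12 differed by -1.39 ± 0.08, Med30 by -1.59 ± 0.26 and Med13l by -1.03 ± 0.05, and Med12l had 14, 11.8 and 31 expected counts with LPS + IL-10 against 2, 0 and 1. Cdk8, Med14, Med17 and Polr2g were not called, at 0.12, 0.14, 0.06 and -0.10.

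**Figure D5:**
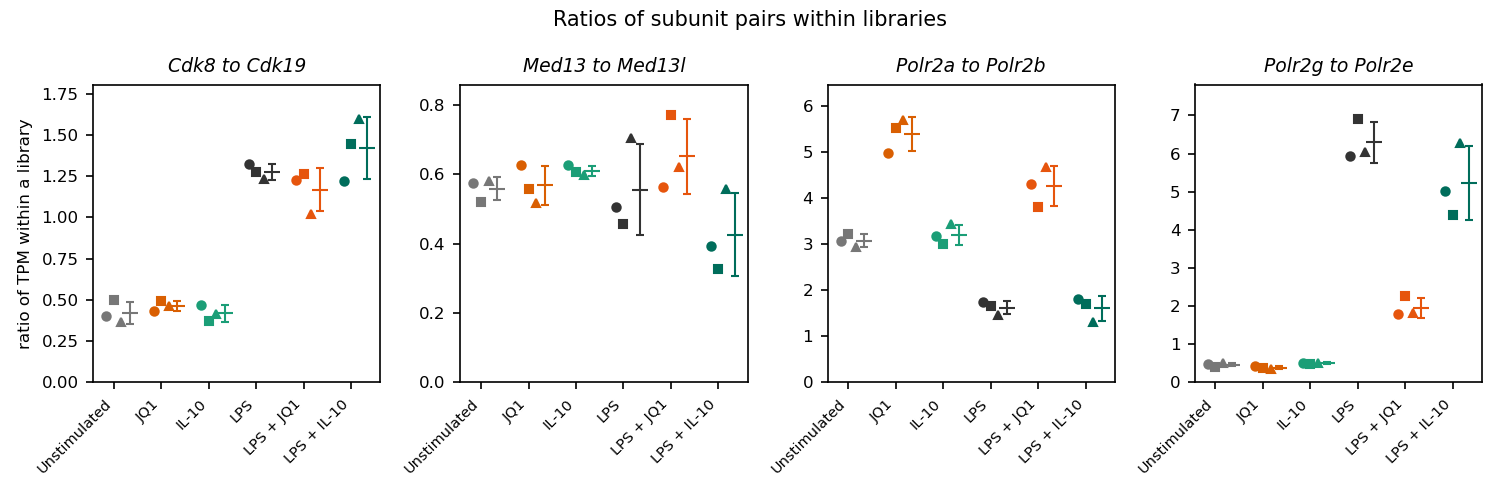
Ratio of TPM of 4 subunit pairs within each library (vertical axis, from 0) in the 6 groups, with circle, square and triangle for replicates 1, 2 and 3 and the mean and SD beside them. Cdk8 to Cdk19 is above 1 in all 9 libraries with LPS and below 0.5 in those without, Med13 to Med13l overlaps between most groups, and Polr2a to Polr2b and Polr2g to Polr2e differ between LPS and LPS + JQ1.

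The factors that work beside these complexes were read from lists of known members. All calls in these lists, here and in the next paragraph, rest on median-of-ratios factors. Their split by direction under other scalings was not counted. For the subunit genes themselves, the split with LPS moved from 23 higher and 10 lower to 9 and 30 with total-count scaling. Over all tested genes 32.3% were called higher and 33.7% lower with LPS, 24.4% and 32.9% with JQ1 during LPS, and 8.38% and 8.81% with IL-10 during LPS. Of 30 general transcription factor genes, 17 were called higher and 5 lower with LPS, led by Gtf2b, which encodes TFIIB, at 2.48 ± 0.11, and Gtf2f1, a subunit of TFIIF, at 1.92 ± 0.13, and the 73.3% called in either direction lay near the 66.0% of all tested genes. JQ1 during LPS left 15 of them higher and 7 lower, with Taf12 at 1.55 ± 0.12 and Gtf2f1 at -0.99 ± 0.12, and IL-10 during LPS left 0 higher and Gtf2b lower at -0.79 ± 0.11. Of 28 pausing and elongation factor genes, 16 were higher and 7 lower with LPS, among them the super elongation complex genes Aff1 at 2.46 ± 0.07, Ell2 at 2.19 ± 0.10 and Ell at -2.28 ± 0.16. With JQ1 during LPS, Ell was at 1.99 ± 0.16 and Ell2 at -0.89 ± 0.10, and Ctr9, of the PAF1 complex, was at 1.56 ± 0.07, after 1.12 ± 0.07 with JQ1 alone.

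Of 18 subunit genes of RNA polymerases I and III only, 4 were higher and 8 lower with LPS, or 66.7% beside 66.0% of all tested genes, and 11 higher and 4 lower with JQ1 during LPS, or 83.3% beside 57.3%. Their median with JQ1 during LPS was 0.58, beside 0.57 for the Pol II genes and -0.11 for all tested genes. Cd3eap, a Pol I subunit gene, was at -1.82 ± 0.19 with LPS and 1.91 ± 0.19 with JQ1 during LPS, and Polr3c, of Pol III, was at 1.63 ± 0.09 and -0.99 ± 0.09. Of 11 genes for phosphatases of the Pol II tail and for assembly factors, 2 were higher and 8 lower with LPS, and 4 higher and 3 lower with JQ1 during LPS. Ctdp1, the main tail phosphatase gene, was at -0.94 ± 0.11 with LPS and 1.11 ± 0.11 with JQ1 during LPS, and Ctdsp2 fell by 2.16 (SE 0.08) with LPS.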

How the data were processed

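RNA was extracted from BMDM cultures of 3 mice, and stranded libraries depleted of ribosomal RNA were sequenced as paired ends. Per the labels and the study's methods, the authors mapped the reads with STAR to the mouse build mm9 and estimated gene abundance in RSEM 1.2.31 at default settings, which ignore strand. The deposited expected counts are estimates in which a read matching several genes is divided among them. Between 5.40% and 6.63% of a library's genes had fractional counts, 6 members among them, so those members, and members overlapping another gene, are uncertain. The deposited TPM is the authors' abundance per length, and the deposited FPKM was not used. At 3 counts the floor per library was 0.106 to 0.442 CPM, which covers counting error only.

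The study's methods name the DESeq2 Wald test for pairwise comparisons, and the joint fit and its term were chosen here. Expected counts were rounded and tested over all 18 libraries with the DESeq2 1.42.0 Wald test in R 4.3.3, group as the only term, with the default filter on low counts. edgeR 4.0.16, limma 3.58.1 on log2(TPM + 1) and log2(TPM + 0.1), other scalings, filters and covariates, and fits without each replicate were the alternatives. Only the main fit, the replicate block, edgeR and limma with a pseudocount of 1 were tested on simulated data. The labels describe matched cultures from 3 mice but do not say that a replicate number marks a mouse. Positions come from GENCODE vM1, which held 45 members, and promoters from RefSeq. Pairs of replicates differed by more than sampling noise (chi-square per degree of freedom 4.14 to 30.5).

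The members and gene lists were chosen with earlier results of these data known. Genes named are Polr2a, Polr2b, Med1, Med14 and the kinase module, plus up to 3 largest rises and 3 largest falls per comparison (called, mean of at least 100 normalised counts, same direction in all 3 pairs). Others, such as Med30, Med31, Polr2c and Polr2i, were named after their values were seen.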

Additional observations from a re-analysis of the deposited data

Results flagged for a closer look

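The effect of JQ1 differed with LPS present at 21 members (DESeq2 interaction, adjusted p under 0.05), given here as the log2 effect with LPS minus that without it. It was higher with LPS for Med22 (1.14), Med31 (1.06), Polr2a (0.82), Polr2e (0.77), Med25 (0.70), Cdk19 (0.57), Med29 (0.55) and Polr2j (0.46), under all 4 scalings. It was lower for Med13l (-1.08) and Med12 (-0.96), also under all 4. It was lower with median-of-ratios factors, and not under every scaling, for Med21 (-1.14), Med13 (-0.87), Med1 (-0.79), Polr2g (-0.64), Polr2c (-0.63), Med28 (-0.60), Med15 (-0.50), Med26 (-0.49), Polr2m (-0.49) and Med10 (-0.44). Med12l had -3.56, a fitted value that rests on at most 2 counts per library in the groups given JQ1 and is no bound. The effect of IL-10 differed with LPS at Med1 (-0.29). All 3 sets of same-numbered libraries had the direction of the value for each of these genes. What lies behind the differences was not tested.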

How the results depend on the processing

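Scaling moved the counts for LPS and for the interaction of JQ1 most, whereas the calls with IL-10 during LPS depended more on the samples used; the cause was not tested. With total-count scaling the members called higher and lower numbered 9 and 30 with LPS, and on TPM 10 and 29 with either pseudocount, with medians of -0.65 and -0.46. With JQ1 alone 6 were higher with total-count scaling and 4 with limma at both pseudocounts, at medians of -0.10 and -0.11. With JQ1 during LPS 10 were lower with total-count scaling and 9 with limma, at medians of 0.25 and 0.20, and the median was -0.0059 with TMM and -0.028 with edgeR. Against LPS + IL-10, 10 were lower with total-count scaling and with limma, at medians of 0.23 and 0.15, and the median was 0.048 with TMM and 0.037 with edgeR. The interaction of JQ1 was called higher for 13 members with TMM, 15 with edgeR, 26 with total-count scaling and 25 with limma, and lower for 4 and 2 in the last pair, with medians of 0.14, 0.11, 0.57 and 0.51. For IL-10 alone the median was 0.052 with limma. For IL-10 during LPS 5 were higher with total-count scaling and 0 were lower with it or with limma, at medians of 0.051 and 0.083. For its interaction total-count scaling gave 1 higher and 0 lower, limma and edgeR 0 lower, and the medians were 0.078 and 0.016. Med14 in LPS turned to -0.65 with total-count scaling, -0.44 on log2(TPM + 1) and -0.49 on log2(TPM + 0.1), and Cdk8 in LPS to -0.89, -0.66 and -0.75.

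With only the groups compared, 5 members were lower with JQ1, and 0 were called higher or lower with IL-10 during LPS or lower in its interaction. Leaving out each replicate gave 6 to 8 members lower with LPS and a median of 0.26 to 0.38. It gave 7 to 10 higher and 5 to 6 lower with JQ1 (12 and 7 without unstimulated replicate 2), at medians of 0.077 to 0.12, and a median of -0.00972 to 0.040 with IL-10. It gave 0 to 1 higher and 0 to 0 lower with IL-10 during LPS, and medians of -0.15 to -0.039 with JQ1 during LPS and -0.058 to -0.000799 against LPS + IL-10. For the interactions it gave 4 to 7 higher with JQ1 and 0 to 0 lower with IL-10. Without unstimulated replicate 1, chosen after seeing the data, the interaction of IL-10 was lower for 2 members, and for 0 without replicate 3 of the LPS and LPS + IL-10 groups, chosen likewise. The latter left every other count of members within 1.5 times.

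The labels do not say that a replicate number marks a mouse. Same-numbered libraries had correlations of their deviations from the group means of -0.11 to 0.42 over 6 comparisons, and 17 of 18 libraries correlated best with their own number. This is a hint from the data and not from the design. For replicates 1 and 3 a shared mouse cannot be told apart from a shared lane. A replicate block gained Med16 (adjusted p 0.0434 in place of 0.0517) and Polr2k (0.0452, 0.0535) with LPS, lost Med20 with JQ1 (0.0503, 0.0434) and Med29 in the interaction of JQ1 (0.0557, 0.0419) by the DESeq2 test, and changed no other call of a member in the 8 comparisons. Of the gene values under all alternatives, 1592 kept their direction and side of the threshold, 87 lost the call, 24 gained it and 6 reversed. All libraries of replicate 1 shared a lane and all of replicate 3 another, while those of replicate 2 were split between them by LPS; with the lane as a term no count of members moved by over 1.5 times. Depth limits Med12l, and 3 libraries per group limit small changes.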
